A study of Homo sapiens with 15 samples.

Results

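The late outcome of WNT inhibition was examined in 4 of the 15 bulk RNA-seq libraries of a cardiac differentiation of H1 human embryonic stem cells. NP-IWP2 and NP-ctrl cells were compared on day 7 and on day 10, with 1 library for each arm and day. Genes with at least 30 counts in 1 of the 4 libraries were used, which left 16150 of the 60605 genes in the table, 13715 of them protein-coding.

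All 4 libraries came from wild-type H1 cells that were directed to mesendoderm with the WNT activator CHIR99021 on day 0 and then kept with insulin on day 1, stayed in their wells (NP, not passaged) and shared the culture of days 0 to 2. NP-ctrl cells received no further inducer and differentiated spontaneously. NP-IWP2 cells received IWP2 from day 2 to day 4, according to the methods of the study, so the inhibitor was no longer in the medium on the days compared here. The labels call the cells embryonic stem cells, but the pluripotency factors POU5F1 and NANOG had at most 6 counts in each library. H1 is 1 established line, and nothing in the labels points to a second culture of any arm.

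WNT proteins are secreted signals that have to be modified by the enzyme PORCN before they leave the cell, and IWP2 blocks PORCN. In cardiac differentiation WNT signalling has opposite roles over time. It is needed for mesendoderm and then holds back the step from cardiac mesoderm to cardiomyocytes, so that its inhibition after the mesendoderm stage is a widely used way to obtain cardiomyocytes. Without an inducer, mesendoderm gives a mixture that includes endoderm, mesothelium, stroma and some heart muscle.

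Total counts were 13254723 and 16168278 on day 7 and 13461749 and 15838089 on day 10, in NP-ctrl and NP-IWP2 respectively, so that 3 counts of a gene with 1 kilobase of exons corresponded to an FPKM of 0.186 to 0.226. Genes of the mitochondrial genome took 3.71% to 3.72% of counts in NP-ctrl and 5.41% to 6.02% in NP-IWP2, and the part of this difference in the results below was not tested, except that taking those genes out of the library totals left 566 genes higher and 759 lower in place of the 543 and 806 given next. Fold values are ratios of FPKM between the arms on the same day, with exact 95% intervals that cover counting error only. In bulk RNA, fewer cells of a type and less RNA per cell cannot be told apart.

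In NP-IWP2, 543 genes were at least 2-fold higher on both days, 3.36% of those tested, and 806 were at least 2-fold lower on both days, 4.99%. Another 12600 genes were within 2-fold on both days, 2171 passed 2-fold on 1 day, and 30 passed it in opposite directions. The median log2 ratio of all genes was -0.04 on day 7 and -0.01 on day 10. No test is possible within a day. The quasi-likelihood test of edgeR with day as a block treats the 2 days as the repetition and so measures how alike the difference was on both days of 1 series of cultures. It called 1771 genes higher, 11.0% of those tested, and 1940 lower, 12.0%, at an adjusted p under 0.05. Without the block for day the same test called 0 genes, with 2552 at an unadjusted p under 0.05, and with days 3 and 5 added it called 88. Of 99 called genes followed by name, 68 kept their call when the passaged libraries of the same days joined the fit. That fit takes its spread from the passaged arm as well, and in it 0 of the 99 turned direction. With days 3 and 5, 25 of the 99 kept their call. Adjusted p values below are those of edgeR with the block, and a gene is said to have passed the test on that basis.

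**Figure D1:**
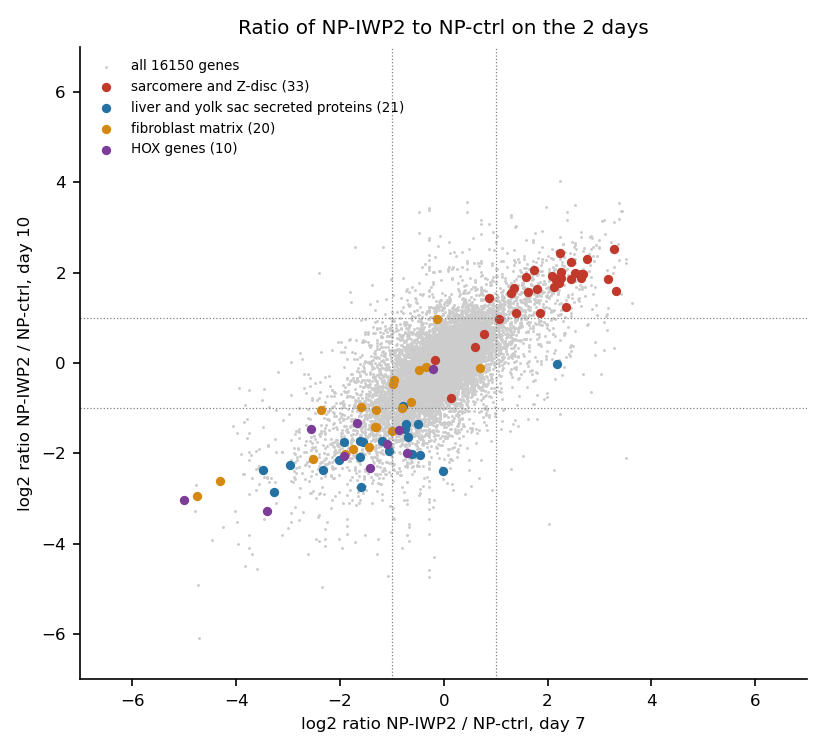
Log2 ratio of NP-IWP2 to NP-ctrl on day 7 (x axis) and day 10 (y axis) for all 16150 genes (grey) and the members of 4 lists (colours), with counts under 3 raised to 3 and dotted lines at 2-fold. Sarcomere genes lie mostly at the upper right, and liver, matrix and HOX genes mostly at the lower left.

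The transcription factors that build the cardiac program were mostly higher in NP-IWP2. Of 16 cardiac transcription factors, 8 were at least 2-fold higher on both days and 1 lower, against 3.36% and 4.99% of all genes. The test called 12 higher and 1 lower, against 11.0% and 12.0% of all genes. The median log2 ratio was 1.29 on day 7 and 1.16 on day 10. NKX2-5, the homeobox factor of heart muscle precursors (GRCh38 chr5:173232109-173235311), had an FPKM of 19.9 in NP-ctrl and 126 in NP-IWP2 on day 7, and of 26.2 and 92.3 on day 10. The NP-IWP2 level was 6.35-fold higher on day 7 (5.80 to 6.96) and 3.53-fold higher on day 10 (3.25 to 3.83), with an edgeR log2 change of 2.27 ± 0.20 (SE) and an adjusted p of 4.32e-05. NKX2-5 was therefore high in NP-IWP2 on both days, and the distance between the arms was smaller on day 10.

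MEF2C and MYOCD, which switch on muscle structural genes, were higher in NP-IWP2 on both days. The FPKM of MEF2C was at 3.75 and 21.4 on day 7 and 3.89 and 20.9 on day 10 in NP-ctrl and NP-IWP2, with folds of 5.69 (5.21 to 6.21) and 5.36 (4.92 to 5.85). The FPKM of MYOCD was at 5.28 and 27.4 on day 7 and 5.54 and 23.6 on day 10. SMYD1, a muscle methyltransferase needed for heart muscle formation, went from 6.53 to 35.5 and from 10.9 to 51.1 between the arms. All 3 genes passed the test, with adjusted p values of 9.32e-06 for MEF2C, 1.36e-05 for MYOCD and 1.25e-05 for SMYD1. ISL1, a factor of cardiac progenitors, was also higher, at 12.1 and 37.0 on day 7 and 7.75 and 28.8 on day 10 (adjusted p = 3.08e-05).

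Not every cardiac factor followed. HAND1, a factor of early cardiac and extraembryonic mesoderm, was lower in NP-IWP2 on both days. Its FPKM was 748 in NP-ctrl and 323 in NP-IWP2 on day 7, and 298 and 132 on day 10. HAND1 was thus 2.31-fold (2.26 to 2.38) and 2.26-fold (2.17 to 2.35) lower, with an adjusted p of 0.000249 that became 0.0676 when the passaged libraries of the same days joined the fit. The closely related HAND2 was within 2-fold, at 70.8 and 82.9 on day 7 and 66.1 and 58.5 on day 10 (adjusted p = 0.835). GATA4, which is shared by heart and endoderm, was at 77.4 and 139 on day 7 and 68.3 and 78.8 on day 10, with an adjusted p of 0.0444 that lay at 0.0587 with DESeq2.

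**Figure D2:**
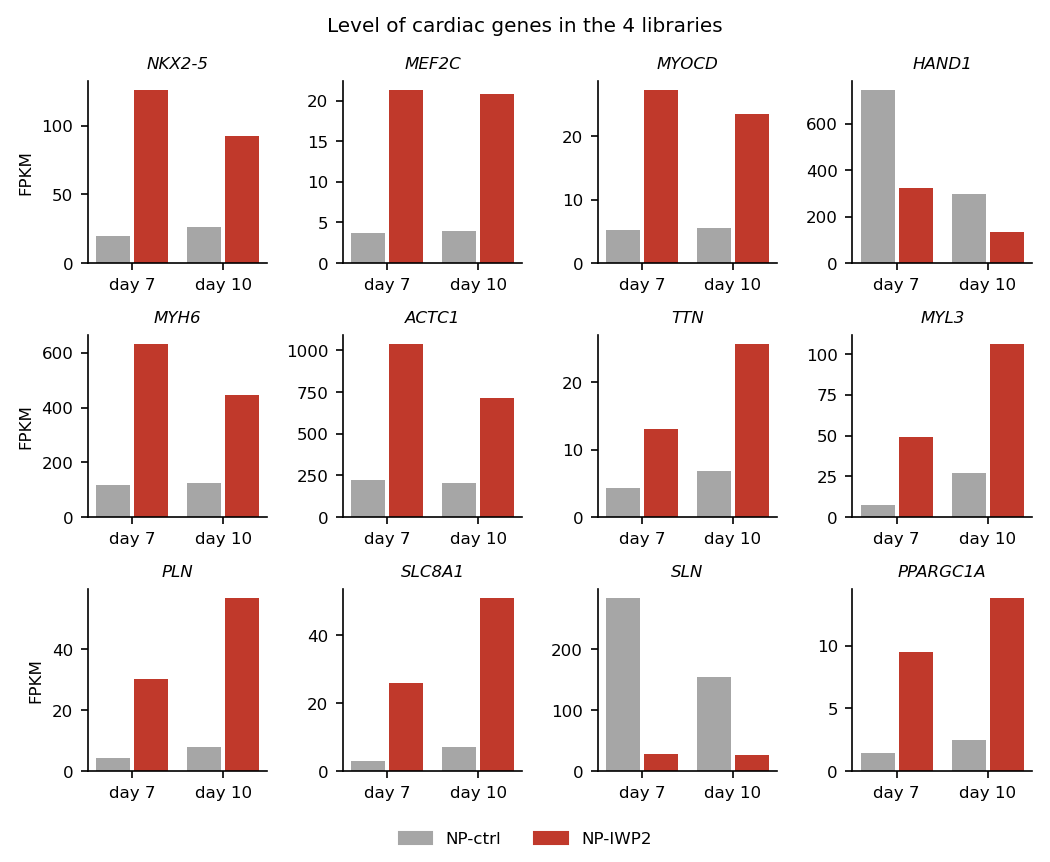
FPKM (y axis, linear from 0) of 12 cardiac genes in NP-ctrl (grey) and NP-IWP2 (red) on days 7 and 10, each bar 1 library. In NP-IWP2 10 of the genes are higher on both days, and HAND1 and SLN are lower on both.

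The contractile apparatus was higher in NP-IWP2 almost throughout. Of 33 sarcomere and Z-disc genes above the filter, 27 were at least 2-fold higher in NP-IWP2 on both days and 0 lower, against 3.36% of all genes. The test called 31 of them higher and 0 lower, against 11.0% and 12.0% of all genes. The median log2 ratio was 2.17 on day 7 and 1.84 on day 10. The summed FPKM of the list was 1300 in NP-ctrl and 4458 in NP-IWP2 on day 7, and 1221 and 3409 on day 10.

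MYH6, the alpha myosin heavy chain that prevails in early heart muscle, had an FPKM of 116 in NP-ctrl and 633 in NP-IWP2 on day 7, and of 123 and 445 on day 10. Its fold was 5.47 (5.36 to 5.58) on day 7 and 3.62 (3.55 to 3.70) on day 10 (adjusted p = 2.36e-05). MYH7, the beta chain that becomes the main form in the ventricle later, lay far lower per length, at 1.20 and 5.77 on day 7 and 4.26 and 17.3 on day 10. Its level was 4.80-fold (3.86 to 6.02) and 4.05-fold (3.60 to 4.56) higher, with an adjusted p of 2.00e-05 that became 0.0635 with the passaged libraries in the fit. The genes for the alpha and beta chain are neighbours of nearly the same sequence on chromosome 14, so reads may be divided between them. MYL2, the ventricular regulatory light chain, had 0 counts in 3 of the libraries and 8 counts in NP-IWP2 on day 10, below the filter.

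The filament genes ACTC1, MYL7 and TTN were each higher in NP-IWP2 on both days. ACTC1, the cardiac actin, was at 222 and 1040 on day 7 and 207 and 713 on day 10. MYL7, the atrial regulatory light chain, was at 395 and 1216 on day 7 and 243 and 720 on day 10. TTN, the molecular spring titin, was at 4.37 and 13.1 on day 7 and 6.89 and 25.7 on day 10. These are folds of 4.69 and 3.44 for ACTC1, 3.07 and 2.97 for MYL7, and 3.00 and 3.73 for TTN, each with an adjusted p at or under 3.78e-05. TTN was among the genes whose distance between the arms was larger on day 10.

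By the smaller fold of the 2 days, MYOZ2 and SMPX led the list. MYOZ2, which ties calcineurin to the Z-disc, was 9.78-fold (8.12 to 11.9) higher on day 7 and 5.75-fold (5.04 to 6.58) on day 10, from FPKM values of 3.58 and 35.0, then 7.49 and 43.1. SMPX, a small protein of striated muscle, was at 8.15 and 55.4 on day 7 and 16.2 and 80.7 on day 10. UNC45B, the chaperone that folds myosin, was at 8.50 and 46.2, then 9.01 and 42.6. The adjusted p values were 1.46e-05, 1.36e-05 and 1.25e-05. All 3 also passed the test when days 3 and 5 were added, with adjusted p values of 0.0216, 0.0109 and 0.0192, while ACTC1, MYL7, MYH6 and MYL3 did not, with 0.451, 0.41, 0.339 and 0.434.

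TNNT2, the troponin T by which the study counted cardiomyocytes, differed less and passed 2-fold only on day 7. Day 7 gave an FPKM of 16.5 in NP-ctrl against 34.4 in NP-IWP2, a fold of 2.09 (1.97 to 2.22). Day 10 gave 21.8 against 42.8, a fold of 1.96 (1.86 to 2.06). TNNT2 passed the test (adjusted p = 0.00053), but not with days 3 and 5 added (0.322). Of the list, 4 members were within 2-fold on both days, among them TPM1 and DES. TPM1, a tropomyosin also found in smooth muscle and fibroblasts, was within 2-fold at 240 and 366 on day 7 and 190 and 243 on day 10 (adjusted p = 0.0253). DES, the muscle intermediate filament, was at 34.9 and 38.5 on day 7 and 80.9 and 47.2 on day 10 (adjusted p = 0.326).

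Promoters of the sarcomere genes are shown because CArG boxes, the binding sequence of the muscle regulator SRF that works with MYOCD, lie close to the start of several of them. RefSeq promoters (GRCh38.p14) were found for 20 of the 27 genes higher on both days, and the 250 bases before the start were searched on both strands. A CArG box was present in 5 of the 20, against 1.14% of 27305 promoters, and a MEF2 site in 7, against 2.90%. The GATA motif AGATAA was present in 7 of the 20, against 9.37% of all promoters. A match describes the letters only, and no binding was measured. The 3 members with a CArG box and the highest FPKM are printed with 15 bases on either side and the box in capitals, 5′ to 3′ on the strand of the gene, which is the minus strand for all 3.
MYL7 (chr7:44141369-44141408): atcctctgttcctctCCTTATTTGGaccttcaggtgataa
ACTC1 (chr15:34795634-34795673): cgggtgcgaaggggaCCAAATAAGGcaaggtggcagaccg
MYOM1 (chr18:3219976-3220015): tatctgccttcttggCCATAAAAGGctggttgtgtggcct
The boxes begin 61, 109 and 32 bases before the start of MYL7, ACTC1 and MYOM1. MYOM1, which crosslinks myosin in the M-band, had an FPKM of 4.50 in NP-ctrl and 28.2 in NP-IWP2 on day 7, and of 11.4 and 42.3 on day 10.

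Genes of calcium handling and excitation were more often higher than lower. Of 27 genes, 10 were at least 2-fold higher on both days and 3 lower, against 3.36% and 4.99% of all genes. The test called 17 higher and 5 lower, against 11.0% and 12.0%, so the lower side was nearer the share of all genes. The 5 were SLN, KCNA5, KCNJ3, GJA1 and GJA5, and all but GJA1 are counted again in the atrial list below. SLC8A1, the sodium-calcium exchanger that carries calcium out of the muscle cell, had an FPKM of 3.03 in NP-ctrl and 26.0 in NP-IWP2 on day 7, and of 7.01 and 51.0 on day 10. Its folds were 8.58 (8.01 to 9.21) and 7.27 (6.95 to 7.61), with an edgeR log2 change of 3.01 ± 0.16 (SE) and an adjusted p of 8.17e-06. TRDN, which anchors the calcium release channel, was at 0.85 and 5.90 on day 7 and 3.19 and 16.9 on day 10 (adjusted p = 1.26e-05).

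The 2 small inhibitors of the calcium pump lay on opposite sides. PLN, phospholamban, was at 4.24 and 30.4 on day 7 and 8.10 and 56.9 on day 10, 7.18-fold (6.12 to 8.47) and 7.03-fold (6.26 to 7.91) higher in NP-IWP2. SLN, sarcolipin, was at 284 and 28.3 on day 7 and 154 and 26.6 on day 10, 10.1-fold (9.09 to 11.2) and 5.82-fold (5.21 to 6.51) lower in NP-IWP2. Adjusted p values were 8.17e-06 for PLN and 1.34e-05 for SLN. The pump itself, ATP2A2, differed less, at 24.6 and 35.3 on day 7 and 30.03 and 60.4 on day 10 (adjusted p = 0.00517).

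SLN is used as a marker of the atrium, and several other atrial genes were lower as well. Of 9 atrial identity genes, 4 were at least 2-fold lower on both days and 1 higher, against 4.99% and 3.36% of all genes. The test called 5 lower and 2 higher, against 12.0% and 11.0%. KCNA5, an atrial potassium channel, was at 4.64 and 1.64 on day 7 and 6.87 and 2.08 on day 10 (adjusted p = 0.000906). NR2F2, the nuclear receptor COUP-TFII that marks the atrium and also veins and stroma, was at 9.05 and 4.08, then 11.7 and 4.27 (adjusted p = 0.000274). GJA5, a connexin of the atrium and of arteries, had 6 and 0 counts on day 7 and 62 and 15 counts on day 10. Its adjusted p of 0.0319 became 0.0587 with DESeq2 and 0.104 with the passaged libraries in the fit. The atrial genes higher in NP-IWP2 were MYL7 and TBX5, which are expressed in other chambers of the early heart too, and TBX5 was at 10.3 and 28.8 on day 7 and 19.01 and 34.9 on day 10.

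Ventricular and pacemaker lists were shorter and partly overlapped the sarcomere list. Of 6 ventricular genes, 2 were at least 2-fold higher on both days and 1, HAND1, lower, against 3.36% and 4.99% of all genes. MYL3, the ventricular essential light chain, was at 7.61 and 49.0 on day 7 and 27.3 and 106 on day 10 (adjusted p = 2.52e-05), while HEY2 was at 2.33 and 3.08, then 7.15 and 9.02 (adjusted p = 0.203). IRX4, a ventricular factor, was at 2.61 and 10.4, then 7.92 and 14.1 (adjusted p = 0.00337, or 0.112 with the passaged libraries). Of 10 pacemaker genes, 3 were at least 2-fold higher on both days and 0 lower, against 3.36% and 4.99% of all genes. The test called 7 of them higher, against 11.0%. HCN4, the pacemaker channel, was at 11.1 and 26.1 on day 7 and 28.3 and 44.2 on day 10 (adjusted p = 0.00281, or 0.0566 with the passaged libraries).

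Genes of muscle energy supply were higher as well. Of 11 genes for muscle energy and natriuretic peptides, 7 were at least 2-fold higher on both days and 0 lower. The shares of all genes were 3.36% and 4.99%. The test called 8 of the 11 higher, against 11.0% of all genes. CKM, the muscle creatine kinase, was at 3.54 and 34.3 on day 7 and 15.1 and 65.9 on day 10, with folds of 9.69 (7.63 to 12.5) and 4.36 (3.86 to 4.93). PPARGC1A, a coactivator of mitochondrial genes, was at 1.48 and 9.51 on day 7 and 2.47 and 13.8 on day 10 (adjusted p = 9.32e-06). The natriuretic peptides did not pass the test. NPPA had 7 counts in each library of day 7, and 6 in NP-ctrl and 48 in NP-IWP2 on day 10, and NPPB was at an FPKM of 7.25 and 10.4, then 3.78 and 2.23.

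Among protein-coding genes with an FPKM of at least 5 where they were higher, the 15 with the largest folds on both days again held muscle genes. Besides SLC8A1, PLN, MYOZ2, PPARGC1A, MEF2C, TRDN and SMPX they were CNMD, KLHL41, TDGF1, ITGB1BP2, LMO3, DDIT4L, TMEM38A and EEF1A2. KLHL41, which stabilises thin filament proteins, was at 1.53 and 16.5 on day 7 and 5.91 and 60.6 on day 10, 10.8-fold (8.14 to 14.5) and 10.3-fold (8.90 to 11.9) higher. TMEM38A, a potassium channel of the sarcoplasmic reticulum, was at 1.89 and 10.2, then 2.51 and 13.7. EEF1A2, the elongation factor form of muscle and neurons, was at 6.52 and 50.5, then 8.40 and 43.7. LMO3, a LIM-domain cofactor of transcription, was at 1.15 and 7.51, then 1.69 and 9.83. Each of these 4 genes passed the test with an adjusted p at or under 2.21e-05.

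Liver and yolk sac genes were lower in NP-IWP2, but they were measured at high levels in both arms on day 10. Of 21 genes for proteins that liver and yolk sac secrete, 12 were at least 2-fold lower on both days, against 4.99% of all genes, and 0 higher. The test called 20 lower, against 12.0% of all genes, and 0 higher. On day 7 alone 12 members and on day 10 alone 19 members were at least 2-fold lower. Among all 16150 genes, 1374 were so on day 7 and 1627 on day 10. The median log2 ratio was -1.19 on day 7 and -1.94 on day 10. The summed FPKM of the list was 936 in NP-ctrl and 408 in NP-IWP2 on day 7, and 6448 and 1711 on day 10.

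AFP, the fetal counterpart of albumin (chr4:73431138-73456174), had an FPKM of 153 in NP-ctrl and 49.7 in NP-IWP2 on day 7, and of 2366 and 716 on day 10. It was 3.07-fold (2.94 to 3.22) lower on day 7 and 3.31-fold (3.27 to 3.35) lower on day 10, with an adjusted p of 3.32e-05. The levels of the days did not overlap, since NP-IWP2 on day 10 lay above NP-ctrl on day 7. APOA4, an apolipoprotein of intestine and yolk sac, was at 12.2 and 1.26 on day 7 and 525 and 72.5 on day 10, 9.68-fold (6.60 to 14.7) and 7.25-fold (6.88 to 7.63) lower (adjusted p = 9.32e-06). FGA, the fibrinogen alpha chain, was at 21.9 and 4.37, then 145 and 27.9 (adjusted p = 1.25e-05). RBP4, the carrier of retinol in blood, was at 67.9 and 16.7, then 308 and 69.0 (adjusted p = 1.59e-05, or 0.052 with the passaged libraries).

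Between day 7 and day 10 the liver list was higher on the later day within each arm. In NP-ctrl 19 of the 21 genes and in NP-IWP2 15 of the 21 were at least 2-fold higher on day 10 than on day 7, with median log2 ratios of 2.71 and 2.05. AFP was 15.5-fold higher on day 10 in NP-ctrl and 14.4-fold in NP-IWP2. APOA4 was 43.0-fold and 57.4-fold higher, and FGA 6.60-fold and 6.39-fold. These are ratios of single libraries without a test. No share of all genes was counted between the days, so the counts describe the list only. For these 3 genes the distance between the days was of similar size in both arms, while the level was lower in NP-IWP2. ALB was the exception of the list, at 0.81 and 3.71 on day 7 and 5.28 and 5.24 on day 10, and did not pass the test (adjusted p = 0.123).

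**Figure D3:**
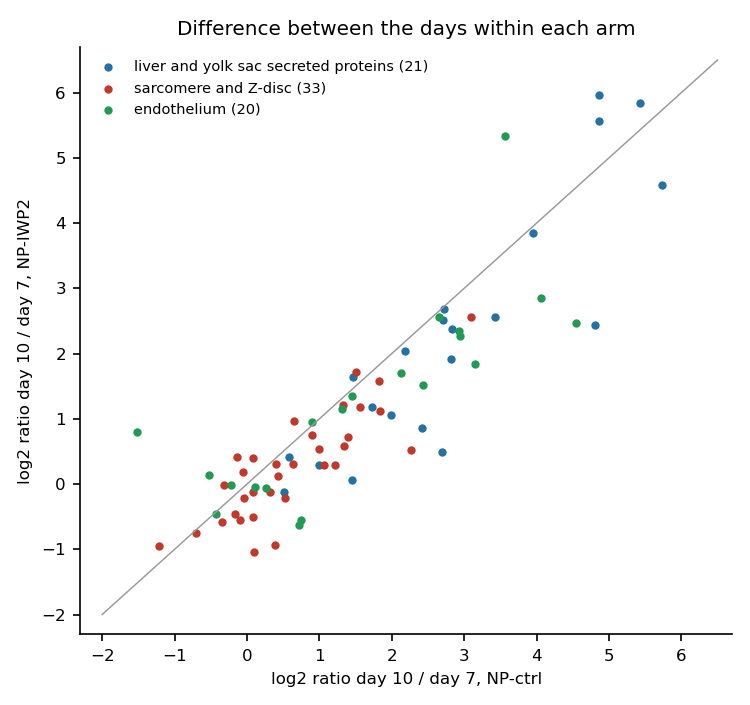
Log2 ratio of day 10 to day 7 within NP-ctrl (x axis) and within NP-IWP2 (y axis) for the genes of 3 lists, with counts under 3 raised to 3 and a line where both arms are equal. Liver genes reach values above 5 in both arms. The sarcomere genes have medians of 0.43 in NP-ctrl and 0.30 in NP-IWP2, with 11 and 6 of 33 at least 2-fold higher on day 10. No share of all genes was counted between the days.

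Stretches of liver promoters are shown for the motifs of HNF1 and HNF4, the factors that maintain liver gene expression. RefSeq promoters were found for 8 of the 12 genes lower on both days. The HNF1 motif GTTAAT was present in 3 of the 8 on either strand, against 6.22% of all promoters, and the HNF4 motif CAAAGTCCA in 1, against 0.293%. No CArG box and no MEF2 site was found in these 8 windows. Capitals mark the motif or its reverse complement, and each stretch runs 5′ to 3′ on the strand of its gene.
AFP (chr4:73436074-73436109, plus strand): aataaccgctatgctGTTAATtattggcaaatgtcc
AHSG (chr3:186612866-186612904, plus strand): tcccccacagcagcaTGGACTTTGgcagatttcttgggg
FGA (chr4:154590774-154590809, minus strand): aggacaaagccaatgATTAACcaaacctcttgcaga
The matches begin 132, 179 and 52 bases before the starts given by RefSeq. AHSG, the plasma protein fetuin-A, had an FPKM of 15.6 and 2.01 on day 7 and of 454 and 95.4 on day 10 (adjusted p = 1.81e-05).

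The factors above these genes were themselves partly lower. Of 12 endoderm transcription factors above the filter, 4 were at least 2-fold lower on both days and 1 higher. The shares of all genes were 4.99% and 3.36%. HNF4A was at 4.22 and 1.39 on day 7 and 3.20 and 0.97 on day 10, 3.04-fold (2.63 to 3.51) and 3.28-fold (2.77 to 3.90) lower (adjusted p = 0.000101). CDX2, the factor of the hindgut, had 33 and 4 counts on day 7 and 67 and 11 on day 10 (adjusted p = 0.00354, or 0.0532 with the passaged libraries). HHEX, which acts in liver bud and in endothelium and blood precursors, went the other way, at an FPKM of 2.21 and 11.7 on day 7 and 2.65 and 6.21 on day 10 (adjusted p = 0.00129, or 0.0843 with the passaged libraries). FOXA1, FOXA2 and FOXA3, the factors that open liver and gut genes, did not pass the test, with adjusted p values of 0.479, 0.0575 and 0.944.

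Gut epithelium was less uniform. Of 14 genes, 3 were at least 2-fold lower on both days and 0 higher, against 4.99% and 3.36% of all genes. The test called 5 lower and 1 higher, against 12.0% and 11.0%. CDH1, the epithelial cadherin, was at 9.64 and 4.28 on day 7 and 22.5 and 7.07 on day 10 (adjusted p = 0.000228, or 0.295 with the passaged libraries). FABP1, the fatty acid carrier of liver and intestine, had 27 and 9 counts on day 7 and 176 and 17 on day 10. The keratins KRT8 and KRT18 were within 2-fold on both days, with KRT8 at 303 and 379, then 188 and 97.6, and KRT18 at 275 and 420, then 180 and 98.6. KRT19 was lower, at 343 and 227 on day 7 and 203 and 84.2 on day 10 (adjusted p = 0.00526, or 0.124 with the passaged libraries). EPCAM was also within 2-fold on both days, at 15.9 and 18.96, then 16.9 and 15.3.

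In the epicardium and mesothelium list more members were lower than higher. Of 15 genes, 5 were at least 2-fold lower on both days and 2 higher, against 4.99% and 3.36% of all genes. The test called 7 lower and 3 higher, against 12.0% and 11.0%. With the passaged libraries, TBX18 and GPM6A of those higher and WT1 and MSLN of those lower were no longer called. The median log2 ratio was -0.54 on day 7 and -1.37 on day 10. On day 7 alone 6 members and on day 10 alone 9 were at least 2-fold lower. Of all 16150 genes, 1374 were so on day 7 and 1627 on day 10. NPNT, the integrin ligand nephronectin, had the largest fold of the list, with an FPKM of 69.9 in NP-ctrl and 4.28 in NP-IWP2 on day 7, and of 169 and 17.3 on day 10. It was 16.3-fold (14.8 to 18.1) and 9.76-fold (9.27 to 10.3) lower, with an edgeR log2 change of -3.62 ± 0.20 (SE) and an adjusted p of 8.17e-06.

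BNC1 and BNC2, zinc finger factors of mesothelium, were at 36.0 and 12.6 and at 13.4 and 2.22 on day 7, and at 53.7 and 15.2 and at 8.50 and 1.76 on day 10, in NP-ctrl and NP-IWP2. UPK3B, a membrane protein of mesothelium, was at 9.0 and 1.81 on day 7 and 11.5 and 1.53 on day 10. All 3 passed the test, with adjusted p values of 4.69e-05, 1.25e-05 and 4.94e-05. WT1, the zinc finger factor of the epicardium, was 1.45-fold (1.32 to 1.59) lower on day 7 and 2.84-fold (2.54 to 3.17) lower on day 10, from 9.68 and 6.67, then 10.0 and 3.53 (adjusted p = 0.0079, or 0.0773 with the passaged libraries). The counts of MSLN, mesothelin, were low at 30 and 14 on day 7 and 44 and 6 on day 10, and its adjusted p of 0.0317 became 0.0795 with DESeq2.

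Other members of the same list were higher in NP-IWP2. TBX18, a factor of epicardium and sinus node, was at 7.13 and 21.8 on day 7 and 40.6 and 65.1 on day 10 (adjusted p = 0.00294, or 0.104 with the passaged libraries). SEMA3D, a secreted guidance protein, was at 0.69 and 3.39, then 1.91 and 9.79, 4.95-fold (3.87 to 6.41) and 5.13-fold (4.43 to 5.96) higher (adjusted p = 1.75e-05). GPM6A, a membrane glycoprotein of mesothelium and neurons, was at 0.99 and 5.98, then 2.43 and 6.63 (adjusted p = 0.000356, or 0.0586 with the passaged libraries). TCF21, which marks precursors of cardiac fibroblasts, did not pass the test, at 5.66 and 2.82, then 6.91 and 6.18.

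**Figure D4:**
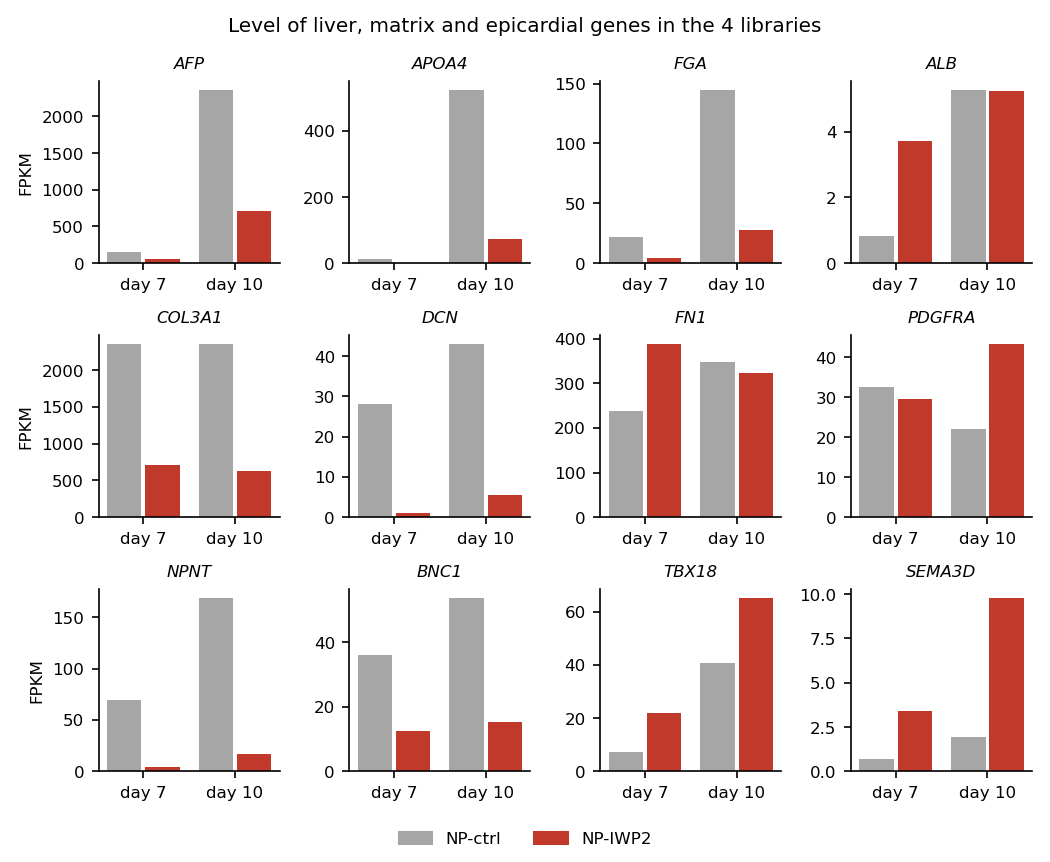
FPKM (y axis, linear from 0) of 12 liver, matrix and epicardial genes in NP-ctrl (grey) and NP-IWP2 (red) on days 7 and 10, each bar 1 library. AFP, APOA4, FGA, COL3A1, DCN, NPNT and BNC1 are lower in NP-IWP2 on both days, TBX18 and SEMA3D are higher, and ALB, FN1 and PDGFRA are not called.

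Matrix genes of stromal cells were lower in NP-IWP2, at a similar summed level on both days. Of 20 fibroblast matrix genes, 10 were at least 2-fold lower on both days, where 4.99% of all genes were, and 0 were higher. The test called 16 of the list lower, against 12.0% of all genes, and 0 higher. The summed FPKM of the list was 6685 in NP-ctrl and 2782 in NP-IWP2 on day 7, and 6807 and 2501 on day 10. COL3A1, a fibrillar collagen, was at 2360 and 705 on day 7 and 2352 and 628 on day 10, 3.35-fold (3.32 to 3.37) and 3.74-fold (3.71 to 3.78) lower. COL1A1 was at 775 and 287, then 871 and 242. The adjusted p values were 2.00e-05 and 5.89e-05, and they became 0.0762 and 0.216 with the passaged libraries in the fit. The log2 changes were -1.797 and -1.615, and -1.833 and -1.704 with the passaged libraries.

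Small leucine-rich proteoglycans and periostin gave larger folds than the collagens. LUM, lumican, was at 778 and 136 on day 7 and 723 and 165 on day 10. DCN, decorin, was at 28.1 and 1.03, then 43.1 and 5.58, 27.2-fold (23.7 to 31.3) and 7.72-fold (7.25 to 8.22) lower. POSTN, periostin, was at 14.5 and 0.74, then 46.4 and 7.57, 19.8-fold (15.4 to 25.8) and 6.13-fold (5.64 to 6.67) lower. All 3 passed the test, and the folds of DCN and POSTN were smaller on day 10 than on day 7. Other genes of mesenchyme, chosen after their values were seen, were within 2-fold on both days, with FN1 at 239 and 388, then 348 and 322, PDGFRA at 32.5 and 29.6, then 22.0 and 43.3, and VIM at 329 and 260, then 230 and 217, and none of the 3 passed the test.

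The 15 protein-coding genes with the largest folds in the other direction were SLC18A3, FAM163A, NPNT, DCN, APOA4, EGFL6, EDN3, POSTN, ATP7B, PITX3, ADAM33, SLN, KCNIP1, ANXA8 and THBD. SLC18A3, the vesicular transporter of acetylcholine, was at 19.1 and 0.72 on day 7 and 12.6 and 0.42 on day 10, 26.7-fold (18.3 to 40.5) and 30.1-fold (18.3 to 53.1) lower (adjusted p = 8.17e-06). EDN3, a ligand of endothelin receptors, was at 12.9 and 0.47, then 8.35 and 1.29. ATP7B, the copper transporter of liver, was at 23.6 and 3.90, then 25.4 and 4.17. THBD, the thrombin receptor of endothelium and mesothelium, was at 21.4 and 1.49, then 23.1 and 4.17. Among the 10 lower genes with the smallest adjusted p were also GAS1 and FRZB, and FRZB, a secreted antagonist of WNT, was at 343 and 70.2, then 368 and 77.5 (adjusted p = 1.34e-05).

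Most endothelial genes were not lower in NP-IWP2, and the receptors FLT1 and TEK, both within 2-fold, were the only members of the list that the test called lower. Of 20 genes, 5 were at least 2-fold higher on both days and 0 lower, against 3.36% and 4.99% of all genes. The test called 6 higher and 2 lower, against 11.0% and 12.0%. The medians were 0.92 and 0.63 on the log2 scale. The defining surface genes were low in all libraries. PECAM1 had 7 and 4 counts on day 7 and 84 and 158 on day 10, and CDH5, the endothelial cadherin, had 17 and 50, then 133 and 235, and neither passed the test. CD34 had 3 and 32 counts on day 7 and 71 and 173 on day 10 (adjusted p = 0.0282), and TIE1 had 7 and 35, then 54 and 174 (adjusted p = 0.00944), both no longer called with the passaged libraries, at 0.15 and 0.113. KDR, which marks cardiac mesoderm as well as endothelium, was within 2-fold at an FPKM of 133 and 91.3, then 93.0 and 100.

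Blood and smooth muscle were present at low or like levels. Only 5 of 16 blood genes passed the filter, and HBG1, HBG2 and GATA1 had at most 6 counts in each library. LMO2, a factor of blood and endothelial precursors, was at 2.29 and 9.61 on day 7 and 3.64 and 7.09 on day 10 (adjusted p = 0.00272). Of 7 smooth muscle genes above the filter, MYOCD was the 1 gene at least 2-fold higher on both days, against 3.36% of all genes. MYOCD also belongs to the cardiac list. The test called 2 of the 7 higher and 1 lower, against 11.0% and 12.0%. ACTA2, smooth muscle actin, was at 108 and 159, then 68.5 and 60.1, and TAGLN at 15.3 and 22.7, then 19.9 and 20.4, and neither passed the test.

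HOX genes, which give cells their position along the body axis, were lower in NP-IWP2. Of 39 genes 10 passed the filter. Among these 7 were at least 2-fold lower on both days and 0 higher, against 4.99% and 3.36% of all genes. The test called 8 lower, against 12.0%. The median log2 ratio was -1.54 on day 7 and -1.89 on day 10. HOXB3 was at an FPKM of 29.9 and 9.43 on day 7 and 20.5 and 8.13 on day 10 (adjusted p = 7.71e-05). HOXB6 was at 36.8 and 9.67, then 14.3 and 3.44 (adjusted p = 2.39e-05). HOXB8 had 105 and 4 counts on day 7 and 90 and 13 on day 10, and HOXC4 had 87 and 10, then 41 and 5, and both passed the test. The gene bodies of HOXB3 and HOXB6 overlap on chromosome 17, so the members of the cluster are not independent measurements. HOXB13, at the far end of the cluster, was within 2-fold with 76 and 80 counts, then 51 and 55, and 29 of the 39 HOX genes were below the filter.

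**Figure D5:**
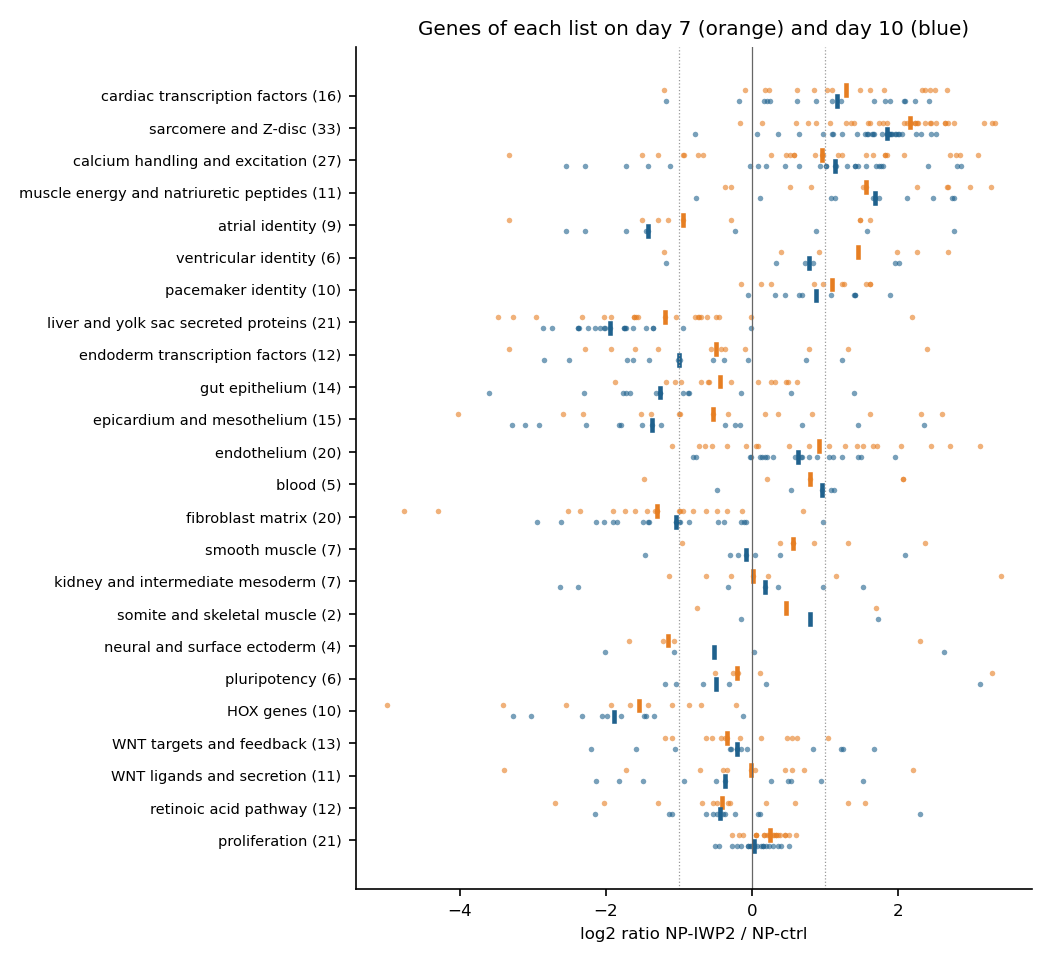
Log2 ratio of NP-IWP2 to NP-ctrl (x axis) for every gene above the filter in 24 lists (rows, number of genes in brackets), with day 7 in orange, day 10 in blue and the median as a vertical bar. Sarcomere medians are 2.17 and 1.84, HOX medians -1.54 and -1.89, and proliferation medians lie near 0.

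Among other lineages few genes were above the filter. In the pluripotency list, of the 6 genes tested TDGF1 was the 1 at least 2-fold higher on both days, against 3.36% of all genes. The test called 1 higher and 1 lower, against 11.0% and 12.0%. TDGF1, the NODAL coreceptor CRIPTO, is also expressed in early heart muscle, and was at 1.18 and 11.5 on day 7 and 0.98 and 8.55 on day 10, 9.75-fold (7.03 to 13.9) and 8.68-fold (6.06 to 12.8) higher (adjusted p = 1.80e-05). In the ectoderm list 4 of 15 genes passed the filter, with OTX2, a factor of anterior ectoderm and endoderm, at 62 and 371 counts on day 7 and 14 and 102 on day 10 (adjusted p = 0.000168, or 0.0537 with the passaged libraries). Of 7 kidney genes tested, 1 was at least 2-fold higher and 1 lower on both days, against 3.36% and 4.99% of all genes. Of 15 somite genes 2 were tested, and UNCX was higher (adjusted p = 0.000537, or 0.211 with the passaged libraries). All 21 proliferation genes were within 2-fold on both days, as were 12600 of all 16150 genes. The test called 2 of the 21 higher, AURKA and MCM3, against 11.0% of all genes.

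Genes of the WNT pathway itself were called in both directions. Of 13 targets and feedback genes, 1 was at least 2-fold higher and 2 lower on both days, against 3.36% and 4.99% of all genes. The test called 3 higher and 2 lower, against 11.0% and 12.0%. On both days 7 of the 13 were within 2-fold, as were 12600 of all 16150 genes. These counts are too small to set the list apart from all genes. AXIN2, the common readout of the pathway, was at 6.29 and 4.67 on day 7. On day 10 it was at 4.75 and 3.89 (adjusted p = 0.187). DKK1, a secreted WNT antagonist, was at 3.97 and 8.16, then 18.03 and 41.9 (adjusted p = 0.000568), and LEF1 at 31.3 and 43.6, then 21.9 and 39.2 (adjusted p = 0.00774), but neither passed with the passaged libraries, with adjusted p values of 0.449 and 0.0773, and with days 3 and 5 in the fit the log2 change of both turned, to -0.28 and -0.045. LGR5 and NKD2 were lower at low counts, and neither was called by DESeq2, with adjusted p values of 0.116 and 0.121. Of 11 ligand and secretion genes, the test called 3 higher and 2 lower, against 11.0% and 12.0% of all genes. WNT2, a ligand of the heart field, was higher at 1.26 and 5.82, then 2.79 and 8.02 (adjusted p = 0.000242). WNT9A was lower with 43 and 5 counts, then 102 and 34. PORCN, the target of IWP2, was at 2.56 and 2.54, then 1.82 and 2.19.

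In the retinoic acid pathway, which patterns the inflow tract and the HOX code, 1 of 12 genes was at least 2-fold higher on both days and 2 were lower. The shares of all genes were 3.36% and 4.99%. The test called 1 higher and 3 lower, against 11.0% and 12.0%. On both days 6 of the 12 were within 2-fold, as were 12600 of all 16150 genes. These counts are too small to set the list apart from all genes. RARB, a receptor that retinoic acid itself induces, had 38 and 136 counts on day 7 and 27 and 156 on day 10 (adjusted p = 0.00185). STRA6, the membrane receptor of retinol-binding protein, was at an FPKM of 13.1 and 5.40 on day 7 and 12.6 and 5.94 on day 10 (adjusted p = 0.00029), and RBP4 is described among the liver genes above. ALDH1A2, the enzyme that makes retinoic acid in the embryo, had 15 to 25 counts in each library, below the filter.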

How the data were processed

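Counts per Ensembl gene and FPKM values were used as deposited by the authors, whose processing notes name cutadapt 1.9.1, HISAT2 2.0.1, HTSeq 0.6.1, DESeq2 and hg38. The deposited FPKM values equal the counts scaled by exonic length and library total, to within 0.005. The labels name a long-read library kit while these tools are for short reads, so values scaled by length carry that doubt. Strand use in counting is not given in the sources used here, so overlapping and near-identical genes are uncertain. Of the genes, 60463 matched GENCODE 44 by identifier, 93.8% with identical coordinates, so coordinates are on GRCh38. Each label matched 1 count and 1 FPKM column.

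Ratios used counts per library total, with counts under 3 raised to 3 for calls. Exact Clopper-Pearson intervals at 95% rest on the counts of 1 library for each arm and cover counting error only. They take reads as independent, which PCR copies of a molecule are not, so they may be too narrow. The test was edgeR 4.0.16 (R 4.3.3) on the counts, with TMM, day as a block, genes with at least 30 counts in 1 library and Benjamini-Hochberg adjustment. It has 1 residual degree of freedom per gene, shared across genes, and was tested on simulated data. DESeq2 1.42.0 and limma 3.58.1 were alternatives. Nothing says that libraries came from separate cultures, so p-values may measure technical spread. Members and gene lists were chosen with earlier results of these data known. Named genes were list members, the 15 protein-coding genes with the largest folds in each direction (FPKM of at least 5 in the higher arm), 5 genes with opposite directions and the 10 smallest adjusted p in each direction. Promoter stretches are the list members with a motif and the highest FPKM on day 10. Python 3.11.15, pandas 2.3.3, SciPy 1.17.1 and matplotlib 3.10.9 were used.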

Additional observations from a re-analysis of the deposited data

Results flagged for a closer look

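A total of 30 genes were at least 2-fold higher in NP-IWP2 on 1 day and at least 2-fold lower on the other, and 24 of these had at most 100 counts in every library. With 1 library for each arm and day, the difference between the days was not tested for any of them. The 5 with the largest differences on both days were low in counts, and counts under 3 were raised to 3 for their log2 ratios. SLX1B had a log2 ratio of 3.52 on day 7 and -2.11 on day 10, from 4 and 56 counts in NP-ctrl and NP-IWP2 on day 7 and 11 and 0 on day 10. The log2 ratio of F12 was 2.13 and -2.36, from 3 and 16 counts, then 48 and 11. That of ENSG00000230882 was 2.04 and -3.56, from 0 and 15 counts, then 30 and 3. CETN4P had -2.40 and 2.00, and GUSBP13 had -1.70 and 2.57.

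The 6 genes of this kind with more than 100 counts in a library, chosen after their values were seen, all were higher in NP-IWP2 on day 7 and lower on day 10. DLK1, a membrane protein of fetal liver and stroma, had 343 and 1009 counts on day 7 and 5155 and 2153 on day 10, log2 ratios of 1.27 and -1.49. SEMA3E, a guidance protein, had 177 and 471, then 481 and 233, at 1.13 and -1.28. ITIH2, a protein secreted by liver, had 4 and 12, then 396 and 91, at 1.30 and -2.36. NPY, a neuropeptide, was at 1.17 and -1.02, SCUBE1 at 1.15 and -1.03, and MTLN at 1.37 and -1.26.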

How the results depend on the processing

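The edgeR test called 3711 genes, and 2326 with DESeq2, 1969 with limma on log2(FPKM + 1), 936 with the passaged libraries, 88 with days 3 and 5 and 0 without a block for day. Genes at least 2-fold lower on both days numbered 806, and 1235 with a filter of 10 counts, 496 with 100 counts, 1372 with no filter and 260 on log2(FPKM + 1), where 249 in place of 543 were higher. At 4-fold, 86 were higher and 143 lower, with 5 sarcomere, 5 liver and 3 epicardial genes. With a single day, 915 to 1013 genes were higher, 1374 to 1627 lower, 28 to 28 of the sarcomere, 12 to 19 of the liver and 6 to 9 of the epicardial list. Among higher and lower genes together the higher share was 40.3%, and 33.3% to 48.9% across all settings.

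Of 99 named genes called by edgeR, 99 kept direction and call with median-of-ratios scaling and with no filter, 94 with DESeq2, 90 with limma, 68 with the passaged libraries and 25 with days 3 and 5, where DKK1 (-0.28) and LEF1 (-0.045) turned. The causes were not tested. Leaving out a day leaves no residual degree of freedom, so the test could not be repeated without a day.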

Other observations

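Several of the long non-coding RNAs with the most counts among those lower in NP-IWP2 belong to imprinted loci, where 1 parental copy is silent. Of 1623 long non-coding RNAs above the filter, 58 (3.57%) were at least 2-fold higher on both days and 109 (6.72%) lower. The shares of all genes were 3.36% and 4.99%. H19 had 1319 counts in NP-ctrl and 623 in NP-IWP2 on day 7, and 1112 and 400 on day 10. KCNQ1OT1 had 1205 and 477, then 2190 and 1142, and COPG2IT1 had 1010 and 426, then 1133 and 566. A list of 21 imprinted genes was then written, after these values were seen, so that its counts are a description only. Of 17 above the filter, 6 were at least 2-fold lower on both days and 0 higher, against 4.99% and 3.36% of all genes. The edgeR test called 11 lower and 1 higher, against 12.0% and 11.0%. The median log2 ratio was -0.87 on day 7 and -0.90 on day 10. IGF2, a fetal growth factor of liver and mesenchyme, had 6604 and 2350 counts on day 7 and 9442 and 2571 on day 10, and PLAGL1, a zinc finger factor, had 1791 and 470, then 1690 and 829. SNRPN was the 1 gene called higher, with 1209 and 2195 counts, then 1036 and 2072. Several of these genes are also expressed in liver and stroma, whose lists were lower in the same libraries, and the part of those cells in these values was not tested.

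Some non-coding RNAs of muscle and heart loci were higher in NP-IWP2. MIR133A1HG, the host transcript of a muscle microRNA, had 16 and 138 counts on day 7 and 34 and 279 on day 10. ISL1-DT, which starts beside ISL1, had 215 and 747, then 218 and 854. TBX2-AS1, antisense beside TBX2, had 185 and 562, then 227 and 581. Whether the counting used strand is not given in the sources used here, and if it did not, reads of such neighbours cannot be told apart where they overlap.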
